A study of Homo sapiens with 12 samples.

Results

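The 41 genes described here take glucose to lactate, set the pace of that pathway, carry its substrates across the plasma membrane, or belong to the response of cells to low oxygen. They were taken by name: 17 core enzymes from hexokinase to lactate dehydrogenase, 7 PFKFB and PDK regulators, 4 transporters, 4 genes for HIF alpha subunits and prolyl hydroxylases, and 9 other targets of HIF. All 41 were among the 56832 genes counted in MDA-MB-468 cells, an established basal-like human breast cancer line, and 39 passed the filter on low counts, out of 14549 genes tested. A stable line carried pCDH-TRB, which encodes the T3 receptor TR beta (the TRB line), and another the empty vector pCDH-EV (the EV line). Both were starved of hormone in medium with charcoal-stripped serum and then received T3, the active thyroid hormone, at 10 nM or its NaOH vehicle for 24 hours. Each of the 4 combinations had 3 libraries, and the labels do not say whether these came from separate cultures, so the tests measure the spread between libraries, which may be technical. The labels name 1 line per vector and no promoter for the transgene, so a difference between vectors is a difference between these 2 lines. The labels name no low-oxygen treatment.

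Glycolysis splits glucose into pyruvate, and lactate dehydrogenase turns pyruvate into lactate, which monocarboxylate transporters export. The pace is set mainly at hexokinase and phosphofructokinase. PFKFB enzymes make and break fructose 2,6-bisphosphate, the strongest activator of phosphofructokinase, and PDK enzymes shut pyruvate dehydrogenase and so keep pyruvate out of the mitochondrion. HIF transcription factors consist of an oxygen-regulated alpha subunit, encoded by HIF1A or EPAS1, and the stable partner ARNT. With oxygen present, prolyl hydroxylases (the EGLN genes) mark the alpha subunit for destruction, so HIF activity is controlled chiefly at the protein, which RNA counts do not measure. Many basal-like breast tumours use glycolysis heavily.

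Gene totals ranged from 4241863 to 11955825 counts per library, and all vehicle libraries were shallower than all T3 libraries. Mitochondrial ribosomal RNA made up 0.326% to 2.68% of gene counts in the vehicle libraries and 0.0502% to 0.09% in the T3 libraries. Alignments that were not unique made up 20.49% to 24.5% in EV cells with vehicle and 16.36% to 17.63% with T3. In TRB cells they made up 17.63% to 23.27% with vehicle and 14.88% to 15.96% with T3. T3 and these library properties therefore cannot be told apart in any T3 comparison below. THRB averaged 43.4 CPM (counts scaled to library size with TMM factors) in EV cells with vehicle, 38.5 in EV cells with T3, 140.2 in TRB cells with vehicle and 329 in TRB cells with T3. KLF9, a textbook T3 target, stood at 2.95, 13, 2.44 and 27.1 CPM in the same order, and HR, another, at 87.5, 96.1, 61.6 and 219.7. The 6 basal epithelial markers were all detected, but their summed level was lower in TRB cells, at 6140 to 6170 CPM with vehicle and 4970 to 5160 with T3, against 7050 to 7880 in EV cells. EGFR made up most of that sum, at 4421 CPM in TRB cells with vehicle and 4274 with T3, while T3 in TRB cells moved KRT5 by -2.01, KRT17 by -1.61, KRT14 by -1.31, EPCAM by -0.19 and CDH3 by 0.41 on the log2 scale. Of the 5 luminal markers PGR had no count, ERBB2 (0.47) and ESR1 (0.55) rose, and GATA3 (-0.93) and FOXA1 (-0.27) fell. Of the 6 fibroblast markers COL1A2, LUM and DCN had no count, COL3A1 and PDGFRB had at most 5 counts in a group, and COL1A1 lay between 14.6 and 21.1 CPM, highest in TRB cells with T3. The 5 endothelial markers summed to 3.91 to 6.02 CPM in the other 3 groups and to 6.2 to 6.82 in TRB cells with T3, where CDH5 averaged 3.68 CPM against 0.427 with vehicle and KDR 0.347 against 2.36. The leukocyte markers summed to at most 0.746 CPM. The part of these markers in the results below was not tested.

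With T3, TRB cells raised PFKFB3 4.09-fold, VEGFA 3.64-fold, CA9 3-fold, HIF1A 2.62-fold and EPAS1 2.41-fold. LDHA and GAPDH fell. Of the 39 members tested, 26 changed: 19 rose and 7 fell (edgeR's quasi-likelihood test, with a Benjamini-Hochberg adjusted p under 0.05 over all genes). Over all genes tested 44.4% were called, 22.4% higher and 21.9% lower, so much of the genome moved as well. Changes of 1.5-fold or more were called higher in 8 members (HK2, PFKFB3, PFKFB4, SLC16A3, HIF1A, EPAS1, VEGFA and CA9), against 7.76% of all genes, and lower in 2 (ENO2 and LDHA), against 5.5%. The members' median log2 fold change was 0.14, beside 0 over all genes. In a bulk library, fewer cells expressing a gene and less RNA per cell cannot be told apart.

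In EV cells, which lack the transgene, T3 raised 3 members: PFKFB3 by 1.38-fold, EPAS1 by 1.15-fold and HIF1A by 1.14-fold. Over all genes 4.54% were called in that comparison, 2.84% higher and 1.7% lower. The T3 effect itself differed between the lines in 15 members, more positive in TRB cells for 12 and more negative for 3, by the interaction term of the same fit, where 23.9% of all genes were called, 12.3% more positive and 11.6% more negative. The 4 groups enter several comparisons each, so the T3 effects and the differences between lines share libraries and are not independent of one another.

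**Figure D1:**
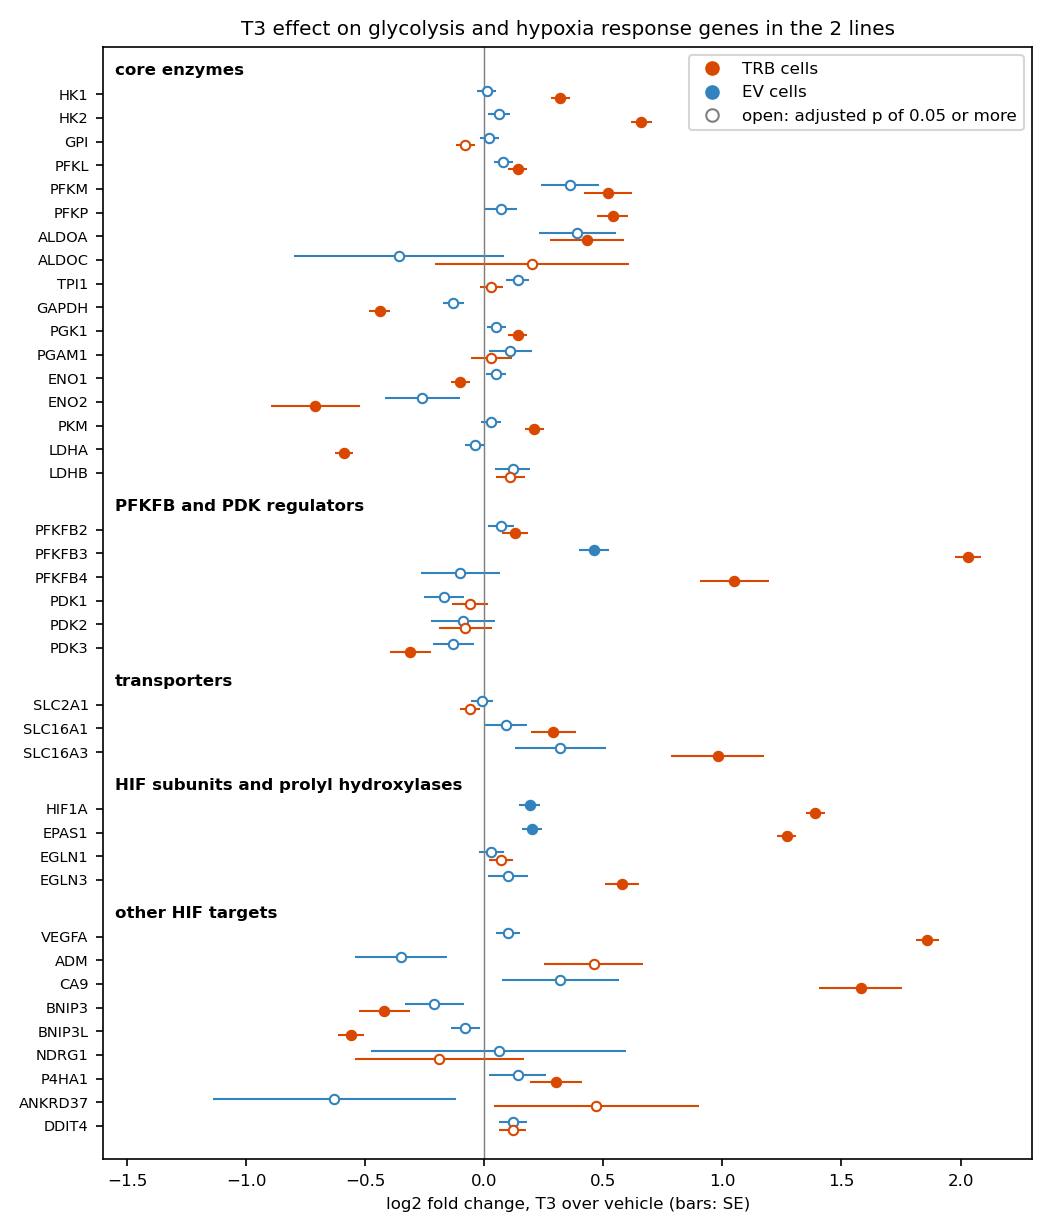
Log2 fold change with T3 over vehicle (x axis) for the 39 tested members, ordered by role, in TRB cells (orange) and EV cells (blue), with bars for the standard error. Filled points passed the test: 26 members in TRB cells and 3 in EV cells, with PFKFB3 and VEGFA farthest to the right at 2.03 and 1.86.

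Promoter sequence was at hand from RefSeq (GRCh38.p14, the assembly of hg38) for 35 members, all but PFKFB2, SLC2A3, SLC16A1, VEGFA, BNIP3L and NDRG1. The 250 bases upstream of a RefSeq start were searched on both strands for the core letters of a HIF response element, ACGTG or GCGTG. Of 64 member windows, 37 held them (57.8%), against 43.2% of 35116 windows in the whole table. AGGTCA, the half-site letters of thyroid hormone receptor elements, stood in 6 of the 64 (9.4%), against 12.1% of all windows. These are matches of letters, not measured binding sites. A gene with several starts gives several windows, which can overlap, as the first 2 of HK1 do. The shares therefore count some sequence more than once. Windows of 4 members are printed because these genes carry the results that follow: 3 that rose with T3 in TRB cells and LDHA, which fell. All 4 lie on the plus strand, and capitals mark the HIF core letters on either strand. The first is chr10:6202682-6202931, before the second of the RefSeq starts of PFKFB3, and the others are chr9:35673678-35673927, chr2:46297157-46297406 and chr11:18394313-18394562. For all 4 the GENCODE gene model begins farther upstream than this start.
PFKFB3: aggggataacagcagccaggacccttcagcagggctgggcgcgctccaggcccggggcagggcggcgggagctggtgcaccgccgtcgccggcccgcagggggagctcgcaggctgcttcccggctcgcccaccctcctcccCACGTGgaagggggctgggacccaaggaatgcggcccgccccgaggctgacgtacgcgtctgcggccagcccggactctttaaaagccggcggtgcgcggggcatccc
CA9: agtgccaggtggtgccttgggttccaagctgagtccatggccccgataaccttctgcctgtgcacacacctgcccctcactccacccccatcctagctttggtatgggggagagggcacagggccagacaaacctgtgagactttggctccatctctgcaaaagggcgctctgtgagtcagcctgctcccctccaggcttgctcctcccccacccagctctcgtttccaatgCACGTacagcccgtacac
EPAS1: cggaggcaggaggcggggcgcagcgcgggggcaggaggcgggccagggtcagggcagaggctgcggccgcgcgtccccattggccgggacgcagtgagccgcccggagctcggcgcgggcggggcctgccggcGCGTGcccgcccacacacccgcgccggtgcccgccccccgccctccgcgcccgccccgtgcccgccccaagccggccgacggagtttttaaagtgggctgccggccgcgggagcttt
LDHA: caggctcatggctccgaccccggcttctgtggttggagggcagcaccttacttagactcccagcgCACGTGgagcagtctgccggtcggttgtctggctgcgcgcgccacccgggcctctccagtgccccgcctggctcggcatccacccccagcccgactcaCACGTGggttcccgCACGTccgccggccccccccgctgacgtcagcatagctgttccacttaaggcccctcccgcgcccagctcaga
The letters occur in the windows of LDHA, which fell, as well as in those of the 3 genes that rose. The matched members without them in any window were EGLN3, LDHB, PDK4, PGAM1, PKM and SLC2A1, each with a single window here. Members with more starts have more windows that can hold the letters. The part of these letters in the changes with T3 was not tested.

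Among the core enzymes T3 raised 8 of 17 in TRB cells and lowered 4, with a median log2 fold change of 0.14. In that comparison 44.4% of all genes were called, 22.4% higher and 21.9% lower. Both hexokinases and all 3 phosphofructokinases rose, and GAPDH, both enolases and LDHA fell. HK2 (chromosome 2, 74833981 to 74893359), the inducible hexokinase that traps glucose in the cell, measured 124, 118 and 123 CPM in the TRB vehicle libraries and 194, 191 and 189 with T3. In EV cells it measured 127, 129 and 137 CPM with vehicle and 133, 141 and 138 with T3. The 3 TRB T3 libraries stood above all 9 others. The log2 fold change was 0.66 (SE 0.043, adjusted p = 9.46e-22) in TRB cells and 0.06 (adjusted p = 0.588) in EV cells, and the difference was 0.60 (SE 0.063, adjusted p = 3.13e-12). HK1, the housekeeping hexokinase, rose by 0.32 on the log2 scale in TRB cells (SE 0.038) and stood at 0.01 in EV cells (SE 0.039), a difference of 0.31 (adjusted p = 5.5e-06).

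The 3 phosphofructokinase genes encode the enzyme of the main control step, and all rose with T3 in TRB cells. The log2 fold change was 0.54 for the platelet form PFKP (SE 0.065), 0.52 for the muscle form PFKM (SE 0.101) and 0.14 for the liver form PFKL (SE 0.039). PFKP had been lower in TRB than EV cells with vehicle, at 67.8 ± 1.64 against 88 ± 6.65 CPM (SD, n = 3), and with T3 it stood at 99 ± 11.9 against 91.2 ± 3.6. The T3 effect on PFKP differed between the lines by 0.48 (SE 0.093, adjusted p = 0.000163). For PFKM and PFKL that difference was not called. In EV cells PFKM averaged 11.7 ± 1.91 CPM with vehicle and 14.8 ± 0.394 with T3, without overlap, and was not called. PFKM is the least of the 3 per length, at 3.43% of their summed CPM per kb in EV cells with vehicle and 5.25% in TRB cells with T3.

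Through the middle of the pathway the changes were small. PGK1, phosphoglycerate kinase, rose by 0.14 (SE 0.039) and PKM, pyruvate kinase, by 0.21 (SE 0.041) on the log2 scale in TRB cells. The difference of the T3 effects was not called for PGK1. For PKM the lines differed by 0.18 (adjusted p = 0.0189), a call lost without EV T3 replicate 1 (adjusted p = 0.0605), TRB T3 replicate 1 (0.0534) or TRB T3 replicate 2 (0.1). ALDOA, an aldolase, had a log2 fold change of 0.43 (SE 0.155, adjusted p = 0.0236), and its vehicle libraries, at 8.02, 6.94 and 13.4 CPM, overlapped the T3 libraries at 10.3, 14.4 and 12.9. That value was 0.23 without TRB vehicle replicate 2 and 0.75 without replicate 3. The call was lost without TRB vehicle replicates 1 and 2 (adjusted p = 0.125 and 0.245) and TRB T3 replicates 2 and 3 (0.115 and 0.0715), and 42.3% of its exon bases lie under another gene on the same strand. In EV cells ALDOA averaged 9.87 CPM with vehicle and 13.1 with T3, without overlap between libraries, and was not called. The difference of its T3 effects was not called either. GPI, ALDOC, TPI1 and PGAM1, which catalyse the isomerase, aldolase and mutase steps, were not called with T3 in TRB cells. Their log2 fold changes there were -0.08, 0.20, 0.03 and 0.03. The annotation names 13 pseudogenes after PGAM1, and alignments that were not unique, 14.88% to 24.5% per library, were counted to no gene.

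GAPDH, the dehydrogenase often used as a reference gene, measured 2513, 2399 and 2354 CPM in TRB cells with vehicle and 1824, 1892 and 1627 with T3. In EV cells it ranged from 2519 to 2678 CPM with vehicle and from 2338 to 2425 with T3. The lowest values were those of TRB cells with T3, below every other library. It fell by 0.44 on the log2 scale in TRB cells (SE 0.044, adjusted p = 1.16e-13), and the T3 effect was more negative than in EV cells by -0.32 (SE 0.063, adjusted p = 4.43e-05). GAPDH was by length the most abundant member, at 872 CPM per kb in EV cells with vehicle, followed by the enolase ENO1 at 226, PKM at 130 and LDHA at 95.1. The annotation names 62 pseudogenes after GAPDH. The summed CPM of the 17 core enzymes was 7369 ± 47.6 in EV cells with vehicle, 7271 ± 123 with T3, 7059 ± 149 in TRB cells with vehicle and 6551 ± 297 with T3 (SD, n = 3). Without GAPDH the sums were 4770 ± 46.2, 4890 ± 102, 4636 ± 74.3 and 4770 ± 162, which overlap between TRB vehicle and T3.

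ENO2, the neuronal enolase, measured 8.42, 7.2 and 9.17 CPM in EV cells with vehicle and 6.65, 7.39 and 6.8 with T3. In TRB cells it measured 5.92, 5.26 and 5.33 CPM with vehicle and 3.77, 3.05 and 3.23 with T3. Every TRB library lay below every EV library, and the T3 libraries of the TRB line were the lowest. T3 lowered it by 0.71 on the log2 scale in TRB cells (SE 0.186, adjusted p = 0.00114), while the difference of the T3 effects, -0.45, did not pass (SE 0.242, adjusted p = 0.182). ENO1 is the main enolase here: ENO2 gave under 1% of their summed CPM per kb in each group (0.848% in EV cells with vehicle, 0.37% in TRB cells with T3). For ENO1 the log2 fold change in TRB cells was -0.10 (SE 0.041, adjusted p = 0.0498), a call lost without any of 8 libraries (adjusted p 0.0509 to 0.195): EV vehicle replicates 1 and 3, EV T3 replicate 2, the 3 TRB vehicle libraries, and TRB T3 replicates 2 and 3.

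LDHA (chromosome 11, 18394388 to 18408425), the lactate dehydrogenase subunit that favours lactate formation, measured 595, 592 and 584 CPM in EV cells with vehicle and 560, 563 and 604 with T3. In TRB cells it measured 518, 519 and 520 CPM with vehicle and 341, 361 and 331 with T3. The lines did not overlap in either treatment, and TRB cells with T3 were lowest. LDHA fell by 0.59 in TRB cells (SE 0.039, adjusted p = 1.38e-21), was at -0.04 in EV cells (adjusted p = 0.724), and the effects differed by -0.56 (SE 0.055, adjusted p = 2.9e-13). Its partner LDHB, the subunit of tissues that consume lactate, was higher in TRB than EV cells with vehicle, by 0.55 (SE 0.074, adjusted p = 2.27e-08), and did not pass with T3 in TRB cells, at 0.11 (SE 0.061, adjusted p = 0.13). LDHB therefore made up 12.2% ± 0.795 of the LDHA and LDHB level per kb in EV cells with vehicle, 13.3% ± 0.628 with T3, 18.7% ± 0.752 in TRB cells with vehicle and 27.3% ± 1.38 with T3 (SD, n = 3). The shares of the 2 lines did not overlap. Of the exon bases of LDHB, 33.4% lie under another gene on the same strand.

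**Figure D2:**
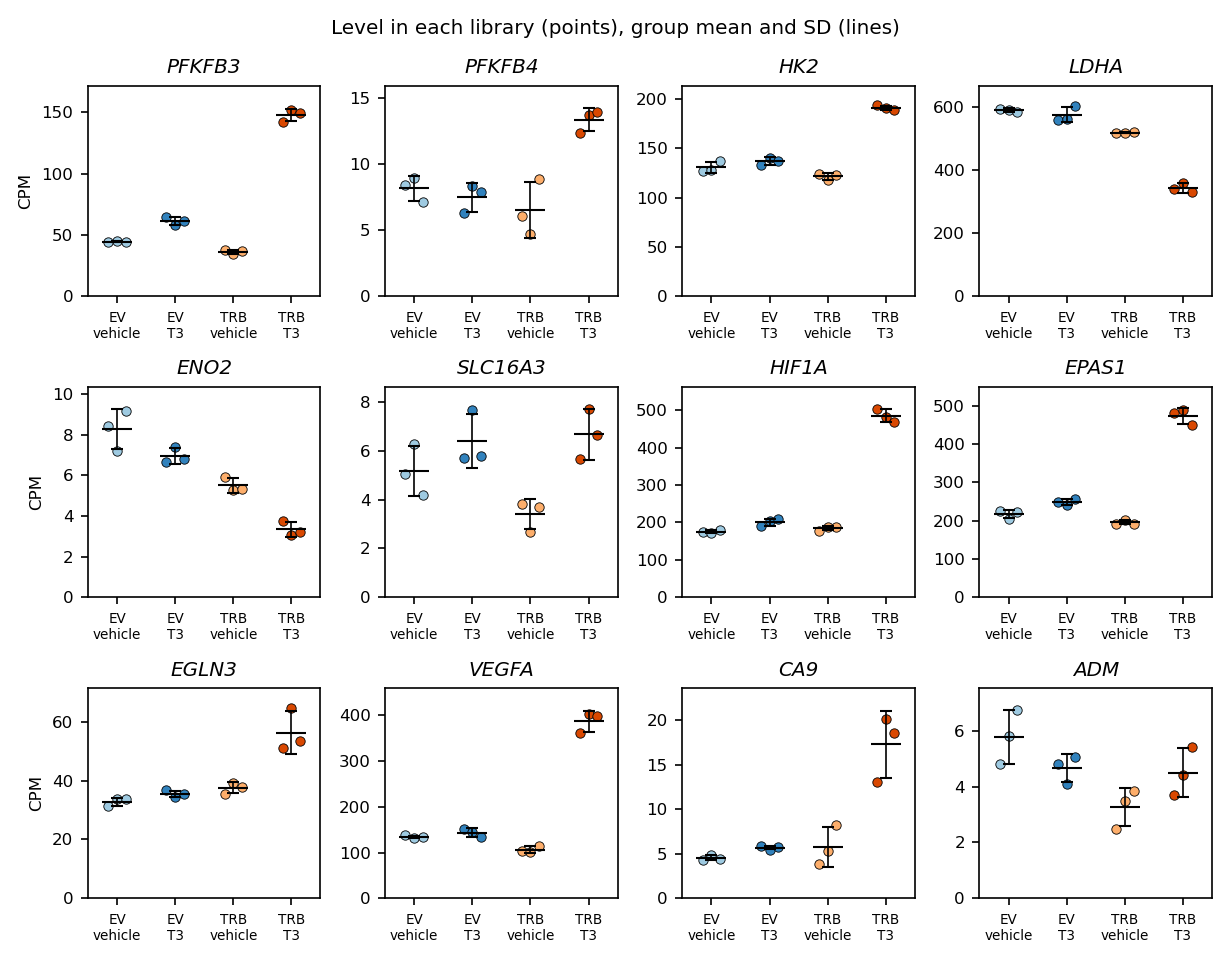
CPM (y axis, from 0) of 12 members in each library, by group on the x axis, with the group mean and SD. The TRB T3 libraries stand apart upward for PFKFB3, PFKFB4, HK2, HIF1A, EPAS1, EGLN3, VEGFA and CA9 and downward for LDHA and ENO2, whereas SLC16A3 and ADM overlap the EV libraries.

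PFKFB3 showed the greatest change of any member. It encodes the form of the bifunctional enzyme whose kinase activity far exceeds its phosphatase activity. PFKFB3 (chromosome 10, 6144934 to 6254644) measured 37.5, 34.3 and 37 CPM in TRB cells with vehicle and 142, 152 and 149 with T3. In EV cells it measured 44.5, 45.2 and 44.2 CPM with vehicle and 64.4, 58.5 and 61.7 with T3. The 4 groups were ordered TRB vehicle, EV vehicle, EV T3, TRB T3, with no overlap between any neighbours. T3 raised it by 2.03 on the log2 scale (SE 0.055, adjusted p = 3.19e-43) in TRB cells and by 0.46 (SE 0.064, adjusted p = 2.16e-07) in EV cells, and the effects differed by 1.57 (SE 0.088, adjusted p = 1.66e-24).

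PFKFB4, a related enzyme known as a HIF target, measured 6.05, 4.7 and 8.88 CPM in TRB cells with vehicle and 12.3, 13.7 and 14 with T3. In EV cells it lay between 6.27 and 8.92 CPM over both treatments. Only the TRB T3 libraries exceeded 10 CPM. The log2 fold change was 1.05 in TRB cells (SE 0.146, adjusted p = 9.19e-09) and -0.10 in EV cells (adjusted p = 0.845), a difference of 1.15 (SE 0.225, adjusted p = 4.32e-05). PFKFB2, the form of heart and kidney, had a log2 fold change of 0.13 in TRB cells (SE 0.054, adjusted p = 0.0364). That call was lost without TRB vehicle replicate 3 (log2 fold change 0.08, adjusted p = 0.267), TRB T3 replicate 1 (0.0717) or TRB T3 replicate 2 (0.126).

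Per length, PFKFB3 gave 42.6% ± 1.18 of the summed level of the 3 PFKFB genes in EV cells with vehicle, 49.9% ± 0.91 with T3, 42.2% ± 1.07 in TRB cells with vehicle and 70.9% ± 0.47 with T3 (SD, n = 3). PFKFB2 made up 49.6% ± 0.727 in EV cells with vehicle and 44% ± 0.171 with T3. In TRB cells it made up 50.2% ± 3.5 with vehicle and 22.7% ± 0.755 with T3. Per kb of exon the leading PFKFB gene was thus PFKFB2 with vehicle and PFKFB3 with T3 in both lines. In EV cells with T3 that order rests on the division by exon length, since the CPM was 90.6 for PFKFB2 and 61.5 for PFKFB3. In TRB cells HK2 made up 35.4% ± 0.574 of the 2 hexokinases with vehicle and 41% ± 0.66 with T3. These shares are descriptions, with no test.

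**Figure D3:**
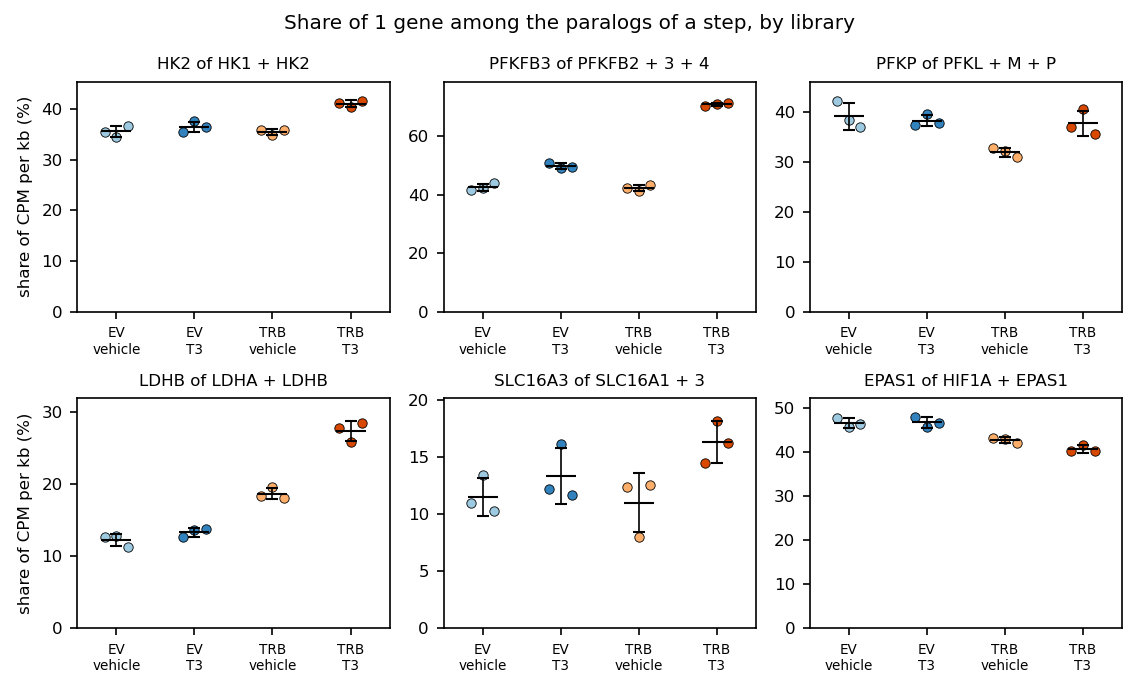
Share of 1 gene in the summed CPM per kb of the paralogs at a step (y axis, percent, from 0), by group, with points for libraries and lines for the mean and SD. The PFKFB3 share is highest in TRB cells with T3 at 70.4% to 71.4%, and the LDHB share rises from EV to TRB cells and again with T3.

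Of the PDK genes, which restrain pyruvate oxidation, 1 of the 3 tested was called with T3 in TRB cells, beside 44.4% of all genes. PDK3 fell by 0.31 on the log2 scale with T3 in TRB cells (SE 0.085, adjusted p = 0.00183), from 26.7, 28.9 and 29.6 to 24.2, 22.5 and 22 CPM. PDK1, a standard HIF target, stood at -0.06 (SE 0.076, adjusted p = 0.551) and PDK2 at -0.08 (SE 0.112, adjusted p = 0.577). In EV cells PDK3 averaged 29.2 CPM with vehicle and 27.1 with T3, and the difference of its T3 effects was not called. PDK4 was too low to test, with 94 counts over the 12 libraries. Its TRB libraries measured 0.789, 0.448 and 0.273 CPM with vehicle and 1.03, 0.988 and 1.4 with T3. These groups did not overlap, on 12 and 39 counts. EV cells measured 0.963, 1.41 and 0.764 CPM with vehicle, which overlapped TRB cells with T3, and 0.482, 0.696 and 0.912 with T3. For PDK2, 38.6% of the exon bases lie opposite an antisense gene.

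Of the 3 transporters tested, T3 in TRB cells raised both monocarboxylate transporters, and the glucose transporter SLC2A1 (GLUT1) did not pass. SLC16A3 (MCT4), the lactate exporter of glycolytic cells, measured 3.81, 2.69 and 3.69 CPM with vehicle and 5.66, 7.72 and 6.63 with T3 in TRB cells. EV cells had 5.05, 6.26 and 4.2 CPM with vehicle and 5.69, 7.66 and 5.8 with T3. TRB cells with vehicle were lowest, and with T3 the 2 lines overlapped. The log2 fold change in TRB cells was 0.98 (SE 0.194, adjusted p = 1.79e-05), and the difference of the T3 effects, 0.66, did not pass (SE 0.278, adjusted p = 0.073). SLC16A1 (MCT1), which carries lactate both ways, rose by 0.29 (SE 0.095, adjusted p = 0.0104), a call lost without TRB vehicle replicate 3 (adjusted p = 0.0684), and was lower in TRB than EV cells with vehicle by 0.48 (SE 0.104, adjusted p = 0.000373). The difference of its T3 effects was not called. SLC2A1 had a log2 fold change of -0.06 with T3 in TRB cells (SE 0.044, adjusted p = 0.271). SLC2A3 (GLUT3) was too low to test, with 21 counts in all 12 libraries.

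Both HIF alpha subunit genes rose. HIF1A (chromosome 14, 61695513 to 61748259) encodes the subunit present in nearly all cells. It measured 178, 189 and 187 CPM in TRB cells with vehicle and 504, 483 and 469 with T3, and in EV cells 174, 172 and 181 with vehicle and 191, 203 and 208 with T3. The TRB T3 libraries stood above all others without overlap. T3 raised HIF1A by 1.39 on the log2 scale in TRB cells (SE 0.040, adjusted p = 5.05e-42) and by 0.19 in EV cells (SE 0.043, adjusted p = 0.00255), and these effects differed by 1.20 (SE 0.059, adjusted p = 1.74e-27).

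EPAS1 (chromosome 2, 46293667 to 46386703), which encodes HIF2 alpha, measured 193, 202 and 192 CPM in TRB cells with vehicle and 480, 488 and 449 with T3. EV cells had 225, 204 and 223 CPM with vehicle and 250, 242 and 257 with T3. The TRB T3 libraries were again the highest and the TRB vehicle libraries the lowest. The log2 fold change was 1.27 in TRB cells (SE 0.040, adjusted p = 3.19e-39) and 0.20 in EV cells (SE 0.043, adjusted p = 0.001), with a difference of 1.07 (SE 0.059, adjusted p = 6.15e-25). Since both genes rose, the EPAS1 share of the 2 per kb moved little with T3, from 42.7% ± 0.64 to 40.7% ± 0.81 in TRB cells and from 46.6% ± 1.03 to 46.7% ± 1.19 in EV cells (SD, n = 3).

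Of the prolyl hydroxylases, EGLN3 (PHD3) is itself a HIF target. It measured 35.5, 39.2 and 37.9 CPM in TRB cells with vehicle and 50.9, 64.5 and 53.5 with T3, and lay between 31.3 and 36.6 in EV cells over both treatments. It rose by 0.58 in TRB cells (SE 0.071, adjusted p = 1.64e-10), just under the 1.5-fold mark, and the T3 effects differed by 0.48 (SE 0.110, adjusted p = 0.000478). EGLN1 (PHD2), the main oxygen sensor of most cells, had a log2 fold change of 0.07 (SE 0.049, adjusted p = 0.224) in TRB cells, and its libraries ranged from 98.7 to 115 CPM over all groups.

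Of the 9 other HIF targets, 3 rose with T3 in TRB cells, 2 fell and 4 did not pass. In that comparison 44.4% of all genes were called, 22.4% higher and 21.9% lower. On so few targets nothing is read from the count. VEGFA (chromosome 6, 43770184 to 43786487), the main angiogenic growth factor, measured 102, 102 and 115 CPM with vehicle and 360, 402 and 399 with T3 in TRB cells. In EV cells it measured 137, 131 and 133 CPM with vehicle and 152, 144 and 134 with T3. TRB cells were below EV cells with vehicle and above them with T3, without overlap in either. VEGFA rose by 1.86 on the log2 scale in TRB cells (SE 0.048, adjusted p = 9.68e-38) and stood at 0.10 in EV cells (SE 0.052, adjusted p = 0.344), and the difference of 1.76 (SE 0.071, adjusted p = 1.21e-27) was the greatest among the members tested.

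CA9, the membrane carbonic anhydrase used in pathology as a mark of hypoxia, was a low gene. It measured 3.81, 5.38 and 8.2 CPM in TRB cells with vehicle and 13.1, 20.2 and 18.6 with T3, and between 4.33 and 5.88 in EV cells. The T3 libraries of TRB cells were above all others, while its TRB vehicle libraries spread widely around the EV values. T3 raised CA9 by 1.58 in TRB cells (SE 0.175, adjusted p = 1.28e-08), and the effects differed by 1.27 (SE 0.317, adjusted p = 0.00337). Of the CA9 exon bases 38.5% lie opposite ARHGEF39, and the strand setting of the counting is unknown here. ARHGEF39 itself stood at -0.26 with T3 in TRB cells (adjusted p = 0.000103), and the part of its reads in the CA9 counts was not tested.

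P4HA1, a collagen prolyl hydroxylase, had a log2 fold change of 0.30 in TRB cells (SE 0.109, adjusted p = 0.0222) with overlapping libraries, and the difference of its T3 effects was not called. Its call was lost without TRB vehicle replicate 1 (adjusted p = 0.077), TRB vehicle replicate 2 (log2 fold change 0.19, adjusted p = 0.242) or TRB T3 replicate 2 (0.159). The mitophagy receptors went down with T3 in TRB cells. BNIP3L fell by 0.56 (SE 0.054, adjusted p = 3.81e-14), from 83.5, 77.4 and 81 to 54.7, 52.1 and 57 CPM, and BNIP3 by 0.42 (SE 0.107, adjusted p = 0.000782), from 17.5, 15.7 and 20.4 to 13.1, 12.8 and 13.8 CPM. Neither gene overlapped between those groups. In EV cells BNIP3L averaged 62.1 CPM with vehicle and 58.8 with T3, and BNIP3 13.7 and 12.1. For BNIP3L the T3 effects differed by -0.48 (SE 0.081, adjusted p = 1.89e-06), and for BNIP3 by -0.21, which did not pass (SE 0.162, adjusted p = 0.393). The annotation names 39 pseudogenes after BNIP3.

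ADM, the gene of the vasodilator peptide adrenomedullin, measured 2.5, 3.47 and 3.83 CPM in TRB cells with vehicle and 3.69, 4.4 and 5.41 with T3. EV cells had 4.81, 5.79 and 6.75 CPM with vehicle and 4.82, 4.09 and 5.06 with T3. TRB cells with vehicle had the lowest values, below both EV groups, and the TRB T3 libraries overlapped all 3 other groups. Neither T3 effect passed, at 0.46 in TRB cells (SE 0.208, adjusted p = 0.067) and -0.35 in EV cells (SE 0.193, adjusted p = 0.366). The difference of the 2 did, at 0.81 (SE 0.284, adjusted p = 0.0276), but not without EV vehicle replicate 3 (adjusted p = 0.136), EV T3 replicate 2 (0.0721), TRB vehicle replicate 1 (0.109) or TRB T3 replicate 3 (0.109).

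The stress gene DDIT4, an inhibitor of mTORC1 signalling, had a log2 fold change of 0.12 with T3 in TRB cells (SE 0.057, adjusted p = 0.0891). ANKRD37 was barely expressed, at 0 to 1.28 CPM over the 12 libraries. NDRG1, a common hypoxia marker, varied widely between libraries of the TRB line: it measured 10.5, 12.2 and 22.5 CPM in TRB cells with vehicle and 7.63, 18.4 and 13.4 with T3, against 4.81 to 7.13 in EV cells. Every TRB library lay above every EV library. The log2 difference between lines was 1.29 with vehicle (SE 0.479, adjusted p = 0.123) and 1.04 with T3 (SE 0.392, adjusted p = 0.0652), and neither passed.

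Without T3, the TRB line differed from the EV line in 13 members, of which 4 were higher and 9 lower, against 15.3% of all genes called, 7.86% higher and 7.4% lower. Higher were LDHB (0.55), PDK2 (0.41), BNIP3L (0.37) and BNIP3 (0.35). Lower were ADM (-0.86), ENO2 (-0.60), SLC16A1 (-0.48), PFKP (-0.36), VEGFA (-0.33), PFKFB3 (-0.30), PFKFB2 (-0.26), LDHA (-0.19) and EPAS1 (-0.15). VEGFA passed with an adjusted p of 1.09e-05 (SE 0.056) and BNIP3L with 1.77e-06 (SE 0.060). This comparison shares the TRB vehicle libraries with the T3 effect in TRB cells. The call was lost for ADM without EV vehicle replicate 3 (adjusted p = 0.0676), for ENO2 without EV vehicle replicate 3 (0.133) or TRB vehicle replicate 2 (0.0544), and for EPAS1 without EV vehicle replicate 1 (0.0911) or 3 (0.0908). For PDK2 it was lost without any EV vehicle library or TRB vehicle replicates 1 or 2 (adjusted p 0.0573 to 0.122), and for BNIP3 without any EV vehicle library or TRB vehicle replicates 1 or 3 (0.0711 to 0.261).

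With T3 in both lines, 25 members differed between TRB and EV cells, of which 15 were higher and 10 lower, against 40.7% of all genes called, 21% higher and 19.7% lower. The greatest differences were CA9 (1.60, SE 0.160, adjusted p = 2.1e-09), VEGFA (1.43, SE 0.044), PFKFB3 (1.27, SE 0.047), HIF1A (1.27, SE 0.038), EPAS1 (0.92, SE 0.038), PFKFB4 (0.82, SE 0.129) and EGLN3 (0.66, SE 0.066), all higher in TRB cells. ENO2 (-1.05, SE 0.164, adjusted p = 1.77e-07) and LDHA (-0.74, SE 0.039) were lower. HK1, HK2, PFKL, PFKM, PGK1, LDHB, PDK1 and PDK2 were higher by 0.12 to 0.54, and GPI, GAPDH, ENO1, PFKFB2, PDK3, SLC2A1, SLC16A1 and DDIT4 lower, with values from -0.11 to -0.42. BNIP3L, higher in TRB cells with vehicle, stood at -0.11 with T3 (adjusted p = 0.107). Leaving out single libraries ended the call of GPI without TRB T3 replicates 1 or 3 (adjusted p = 0.0676 and 0.139), of PFKL without EV T3 replicate 2 or TRB T3 replicates 2 or 3 (0.0526 to 0.0647), of PDK3 without EV T3 replicate 3 (0.0924) and of DDIT4 without EV T3 replicate 2 (0.114) or TRB T3 replicate 1 (0.0831). The PDK1 call ended without EV T3 replicates 1 or 2 or TRB T3 replicate 2 (0.0889 to 0.313). Without TRB T3 replicate 2 the log2 value of GPI was -0.17 and that of PDK1 0.11, in place of -0.11 and 0.19.

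A further 92 genes of the same pathways, grouped by role, were measured for comparison, and 72 could be tested. With T3 in TRB cells 20 rose and 18 fell, with a median log2 fold change of -0.02, beside 44.4% of all genes called, 22.4% higher and 21.9% lower. The share called was 45% of the tested glycolytic, gluconeogenic and pyruvate genes, 57.1% of the pentose phosphate genes, 50% of the transport genes, 33.3% of the HIF pathway genes and 61.3% of the hypoxia responsive genes, and on so few genes per list nothing is read from these shares. Of 20 other glycolytic, gluconeogenic and pyruvate genes 3 rose and 6 fell, among them LDHD, a lactate dehydrogenase of mitochondria that acts on the other mirror form of lactate (-0.92, SE 0.320, adjusted p = 0.0142), and FBP1, the gluconeogenic enzyme that opposes phosphofructokinase (-0.77, SE 0.188, adjusted p = 0.000484). The LDHD call was lost without TRB vehicle replicate 3 (adjusted p = 0.0996) or TRB T3 replicates 2 or 3 (0.0643 and 0.0541). LDHD was low, with 57 counts in the TRB vehicle libraries and 43 in the TRB T3 libraries. Of 7 pentose phosphate genes 1 rose and 3 fell, with PGLS at -0.32 and PGD at -0.19.

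Of 8 other sugar and lactate transport genes 3 rose and 1 fell. SLC16A7 (MCT2), a high-affinity lactate and pyruvate transporter, stood at 0.781 ± 0.231 CPM with vehicle and 4.29 ± 0.222 with T3 (SD, n = 3). Its log2 fold change was 2.41. It passed the filter on low counts only through the TRB T3 libraries, where it is high, so nothing is read from its call. SLC2A4 (GLUT4), the insulin-regulated glucose transporter, rose by 2.18 on the log2 scale (SE 0.325, adjusted p = 4.11e-08), from 0.721 ± 0.483 to 3.47 ± 0.7 CPM. Both transporters were low, with 19 and 18 counts in the TRB vehicle libraries. Of 6 other HIF pathway genes 2 fell and the other 4 did not pass: ARNT, the shared partner of both alpha subunits, by 0.32 (SE 0.052, adjusted p = 3.66e-07), and CITED2, which competes with HIF for its coactivator, by 0.84 (SE 0.050, adjusted p = 7.68e-24). Of 31 other hypoxia responsive genes 13 rose and 6 fell, from CA12, another carbonic anhydrase, at -1.32 (SE 0.319) to TFRC, the transferrin receptor, at 1.29 (SE 0.039). CA12 was low, with 58 counts in the TRB vehicle libraries and 33 in the TRB T3 libraries.

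**Figure D4:**
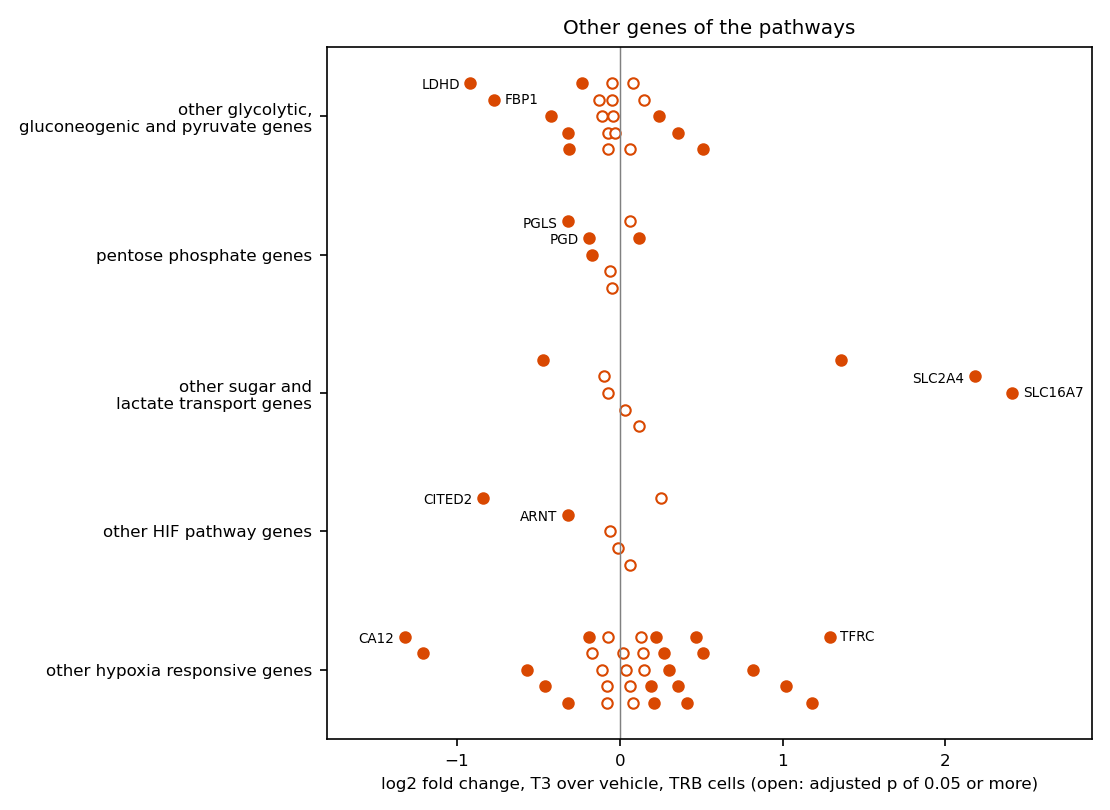
Log2 fold change with T3 over vehicle in TRB cells (x axis) of 72 other genes of the pathways, 1 point a gene, by list. Filled points passed the test, 20 to the right of 0 and 18 to the left, and the named genes are the 2 called genes of each list with the largest absolute value.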

How the data were processed

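RNA sequencing counts of 12 libraries were used. The library kit was NEBNext Ultra II RNA, per the labels' protocols. The submitters' processing notes name CASAVA 1.7, STAR 2.7, HTSeq 0.10, DESeq2 and the build hg38. The annotation and the strand setting of the counting are not given in the sources used here. Whole-number counts for each gene in each library are what the authors deposited. The authors also deposited a normalized table, treated as a score, whose values were the counts divided by 1 factor per library to within 0.85; it served only as a check. Lines that name no gene, 31.87% to 39.24% of alignments, were left out.

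The members and all lists were chosen with earlier results of these data known. In R 4.3.3, edgeR 4.0.16 (with limma 3.58.1) scaled libraries by TMM, dropped low genes with filterByExpr (minimum count 10, minimum total 15) and gave all 4 groups a mean in a single robust quasi-likelihood model, which left 8 residual degrees of freedom. Adjustment was by Benjamini-Hochberg over 14549 genes in each of 5 comparisons. A standard error was obtained by dividing the log2 fold change by the square root of F. The steps were tested on simulated counts. CPM per kb used the exon length of GENCODE v29. Values in every library are given for members changed by 1.5-fold or more with T3 in TRB cells, in the difference of the T3 effects or between lines, and for a few more beside them; from each further list the 2 called genes with the largest absolute T3 effect in TRB cells are named.

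Alternatives were RLE normalization, DESeq2 1.42.0, a filter of CPM above 1 in 3 libraries, no filter, the compared groups alone, a replicate block, each library left out in turn, counts thinned to 4241863, and protein-coding genes only (12396). A fit with the GC trend removed (12934 genes) was added after seeing the data. The same replicate number did not pair libraries: correlations of their deviations ranged from -0.12 to 0.08. Replicates differed by more than sampling noise. The chi-square over its degrees of freedom ran from 1.44 for TRB T3 replicates 1 and 2 to 10.9 for EV vehicle replicates 1 and 2.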

Additional observations from a re-analysis of the deposited data

Results flagged for a closer look

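Each value below is the log2 T3 effect in TRB cells minus that in EV cells, singled out because the interaction term of the edgeR fit passed over all genes. The effect was more positive in TRB cells for VEGFA (1.76), PFKFB3 (1.57), CA9 (1.27), HIF1A (1.20), PFKFB4 (1.15), EPAS1 (1.07), ADM (0.81), HK2 (0.60), PFKP (0.48), EGLN3 (0.48), HK1 (0.31) and PKM (0.18). It was more negative for LDHA (-0.56), BNIP3L (-0.48) and GAPDH (-0.32). In 11 of the 15 the T3 effect was called in TRB cells alone, and in PFKFB3, HIF1A and EPAS1 it was called higher in both lines, with the greater rise in TRB cells. ADM was called in neither line. Every T3 library was deeper and lower in mitochondrial ribosomal RNA than every vehicle library in both lines, and the part of these measures in the differences was not tested.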

How the results depend on the processing

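No member's call changed sign under any of the alternatives. For T3 in TRB cells the count of members called ranged from 22 (DESeq2, and counts thinned to equal depth) to 28 (GC trend removed), with 19 of the 26 called under every alternative. Leaving out 1 library in turn gave 23 to 28. The count for T3 in EV cells was 3 or 4, and all 3 calls held under every alternative, although over all genes 660 calls became 368 by DESeq2, 392 when thinned, and 396, 275 and 341 without EV vehicle replicates 1 and 3 and EV T3 replicate 2. Between lines with vehicle it was 10 to 17, with 8 of 13 called throughout (1430 in place of 2220 over all genes by DESeq2), and with T3 19 to 27, with 17 of 25. The difference of T3 effects gave 13 to 17, with 13 of 15 called throughout. PDK3 and BNIP3 lost their T3 call in TRB cells only when thinned. With the replicate number as a block, which the labels do not tie to a shared culture, the counts were 26, 3, 13, 26 and 15 in the order given, in place of 26, 3, 13, 25 and 15. No scaling moved the median of all genes by more than 0.013 on the log2 scale. Depth limits the members with few counts, such as ALDOC, ANKRD37, ADM, SLC16A3 and ENO2, and PDK4 and SLC2A3 could not be tested.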

Other observations

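Some other genes of the pathways also differed between the lines. SLC16A7 (MCT2) had 1 and 5 counts in the EV vehicle and T3 groups, against 19 and 147 in TRB cells. With T3 the log2 difference between TRB and EV cells was 4.74, on these few EV counts. The gene passed the filter on low counts only through the TRB T3 libraries, so nothing is read from its test. SLC2A4 (GLUT4) was lower in TRB than EV cells with vehicle, by 1.55 (SE 0.400, edgeR adjusted p = 0.00335), and with T3 the lines stood at 3.47 ± 0.7 and 3.05 ± 0.339 CPM (SD, n = 3). The vehicle difference of SLC2A4 missed the threshold with thinned counts. CITED2 crossed over: it was 112 ± 1.19 CPM in TRB against 83.1 ± 0.844 in EV cells with vehicle and 62.5 ± 1.39 against 78.8 ± 4.27 with T3, and the T3 effects differed by -0.76 (SE 0.073, edgeR adjusted p = 8.34e-14). TFRC, which T3 raised in TRB cells from 348 ± 12.7 to 850.3 ± 2.82 CPM, differed in its T3 effect by 1.16 (SE 0.055, edgeR adjusted p = 2.12e-28). Of the 31 other hypoxia responsive genes, 11 had a more positive and 2 a more negative T3 effect in TRB than in EV cells, against 12.3% and 11.6% of all genes tested.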
